A study of Mus musculus with 10 samples.

Results

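The baseline state of pancreatic tumour epithelium was described from the 4 corn oil libraries among the 10 libraries of the series. They were chosen by their treatment label alone and are called replicates 1 to 4. Each holds tumour epithelium cut by laser from frozen sections of an established pancreatic ductal adenocarcinoma of a KPFSR mouse that received corn oil, the vehicle in which tamoxifen is dissolved. From knowledge of the study and not from the labels, KPFSR mice carry tumour-driving alleles, a mutant Trp53 allele among them, Pdx1-driven Flp recombinase, floxed Slc7a11 and a Flp-activated, tamoxifen-inducible Cre at Rosa26, so that vehicle tumours carry the same alleles with Slc7a11 left undeleted. The other 6 libraries came from tamoxifen-treated mice and were not compared here. The labels do not give age or sex, do not say whether each library came from a separate animal, and do not say how many tissue sections were pooled.

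Pancreatic ductal adenocarcinoma arises in the exocrine pancreas and is made of glands that express ductal keratins. Its cancer cells are commonly sorted into a classical program, with gastric-type mucous genes such as trefoil factors and claudin 18, and a basal-like program, with squamous keratins. Early lesions take on a stomach-like, mucus-secreting state, and the stroma around the glands holds fibroblasts, macrophages and vessels.

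The table lists 15624 genes, and library totals ran from 16473902 reads in replicate 1 to 36132316 in replicate 2. Values are read counts scaled to the library total (CPM). Of all listed genes, 9000 had a mean of at least 10 CPM (57.6%). This floor was used to call and rank variable genes and to count genes highest or lowest in a library. List sums and values of single genes are given without a floor. At 10 CPM the shallowest library holds 165 reads, whose exact 95% Poisson interval is 8.55 to 11.67 CPM, and a count of 0 there allows up to 0.182 CPM. Such intervals cover counting error only, since the reads carry no molecular identifiers. The floor is on the mean, so a gene can pass it through a single high library.

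Clusterin (Clu), a secreted chaperone of stressed and regenerating epithelium, took the most reads by far. It stood at 48878, 65642, 38862 and 43516 CPM in replicates 1 to 4, which is 4.89%, 6.56%, 3.89% and 4.35% of each library. The highest value of any other gene was 16442 CPM, and Clu was first in all 4 libraries. Osteopontin (Spp1), a secreted phosphoprotein and the third by mean CPM, stood at 10635, 2671.7, 16442 and 11023 CPM, and replicate 2 was the low library. The entry Rn45s, the 45S precursor of ribosomal RNA, held 0.788% to 1.44% of reads and was second by mean CPM. Reads of mature and precursor ribosomal RNA are not told apart by this entry. The 10 genes with the highest mean together held 10.9% ± 0.794 of reads (SD, n = 4).

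**Figure D1:**
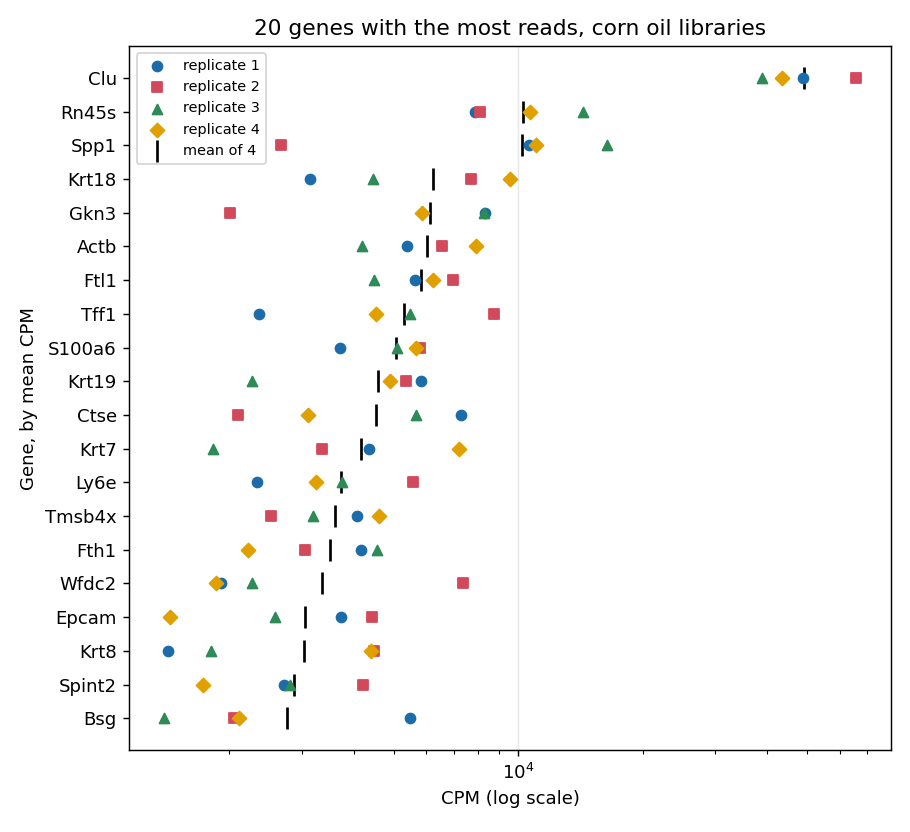
CPM on a log axis for the 20 genes with the highest mean, with a symbol for each of the 4 corn oil libraries and a bar for their mean. Clu lies apart on the right in every library, from 38862 to 65642 CPM, and Spp1 and Gkn3 are low in replicate 2.

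Long genes collect more reads, so levels were compared between genes only after division by exon length and rescaling to a common total, called the length-scaled level. On this scale Clu still led at 37871 ± 9205 (SD, n = 4), followed by the trefoil factor Tff1 at 19804 ± 9953, gastrokine 3 (Gkn3) at 18893 ± 9203 and Spp1 at 16288 ± 8926. Differences within the last 3 were smaller than their SD. S100a11, ferritin light chain (Ftl1), Krt18, S100a6, Tff2 and Wfdc2 completed the 10 highest, at 12556 down to 7763. Of the 20 genes with the most reads, 14 were also among the 20 highest per length. Rn45s had no matched exon length and could not be ranked on that scale. Small secreted proteins of gastric mucus, keratins, S100 proteins and ferritin thus lead the list on both scales.

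The epithelial label was checked against its markers. All 24 epithelial and ductal genes of the list exceeded 10 CPM on average, and their summed length-scaled level was 34470 ± 9987 (SD, n = 4). Epcam, the epithelial adhesion molecule, stood at 3723.5, 4425.3, 2586.8 and 1436.8 CPM. Krt18 and Krt8, a pair of partner keratins of simple epithelium, were both higher in replicates 2 and 4: Krt18 at 3140.1, 7689, 4456.8 and 9579.9 CPM and Krt8 at 1424.1, 4471.1, 1805.7 and 4411.6 CPM. Krt19, the ductal keratin, stood at 5829.2, 5357.8, 2276.5 and 4887.7 CPM. Sox9, the transcription factor of ductal and progenitor identity, was near constant at 378.9, 365.5, 362.2 and 438.2 CPM.

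Markers of other cells were far lower. Length-scaled sums were 435 ± 118 (SD, n = 4) for 19 fibroblast genes, 55.6 ± 35.3 for 13 endothelial genes and 55.4 ± 26.3 for 9 smooth muscle and pericyte genes. Pdgfra, a receptor that marks fibroblasts, was at 0 to 1.52 CPM, and the vessel genes Pecam1, Cdh5 and Vwf reached at most 7.004, 2.71 and 2.19 CPM. By mean CPM, though not per length, the highest endothelial gene was Flt1, a receptor for vascular growth factors, at 14, 7.75, 5.49 and 82.4 CPM. The endothelial sum ran from 23.2 CPM in replicate 2 to 171 CPM in replicate 4. Of 19 fibroblast genes 10 passed the floor. They were led by the matrix protein Fbln2 at 395, 476, 231 and 518 CPM and by Sparc, a collagen-binding protein, at 153, 70.2, 273 and 264 CPM. Collagen Col1a1 stood at 52, 24.6, 41.8 and 93.1 CPM and Col3a1 at 61, 36.1, 36 and 159 CPM, both highest in replicate 4, and Dpt had no read in any library. The T cell genes Cd3g and Cd8a and the B cell gene Ms4a1 had no read, and Cd79a had reads in replicate 3 only. All 8 measured lymphocyte genes together summed to 0.243, 0.0554, 3.90 and 2.90 CPM. The haemoglobin entry of the table, listed under an older symbol, stayed at or below 2.19 CPM. In bulk samples, fewer cells of a type and less RNA per cell cannot be told apart.

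Macrophage genes had a higher length-scaled sum than the fibroblast, endothelial and smooth muscle lists, at 2248 ± 523 (SD, n = 4). Lyz2 supplied 752 and Cd14 596 of it. A mast cell and basophil list, described below, summed to 2145 ± 2469. C1qa, a complement subunit made by macrophages, stood at 42.5, 57.6, 51.2 and 88.4 CPM and Cd68 at 55.7, 38.7, 35.4 and 25.7 CPM, while the receptor Csf1r reached 5.37 to 21.005 CPM and the pan-leukocyte gene Ptprc 1.67 to 12.4 CPM. The most abundant members, Cd14 and Lyz2, are also made by some epithelial cells, and the cells that made them were not tested. The macrophage sum ran from 957 CPM in replicate 2 to 1592 CPM in replicate 1. None of the 11 macrophage genes at the floor differed 4-fold between libraries, against 17.2% of all genes at the floor.

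Genes of normal exocrine and endocrine pancreas were low, with exceptions. Of 14 acinar genes only the elastase Cela1 (144, 15.6, 201 and 101 CPM) and Reg1 (47.8, 65.3, 31.1 and 7.60 CPM) exceeded 10 CPM on average, while trypsinogen Prss2, pancreatic lipase (Pnlip) and Cela2a were at or below 0.835, 0.182 and 0.182 CPM. Insulin was highest in replicate 1: Ins2 stood at 137, 2.38, 6.80 and 1.43 CPM and Ins1 at 38.8, 0.830, 1.03 and 0.477 CPM. Iapp, the amylin gene of beta cells, stood at 30.5, 0.526, 24.3 and 0.477 CPM, so replicate 3 was close to replicate 1. The alpha cell hormone Gcg was at 0.728 CPM and the secretory granule gene Chga at 2.06 CPM in replicate 1. The islet list as a whole spanned 59.7-fold between libraries, from 3.85 to 230 CPM.

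Albumin (Alb), the defining liver gene, had reads in replicate 3 only, at 0.358 CPM, and Apoa1 ran from 0.425 to 26 CPM. Transferrin (Trf) reached 265.7, 58, 238.2 and 724.5 CPM, and apolipoprotein B (Apob) 367, 1.13, 46.2 and 16.9 CPM, so these plasma proteins were read beside almost no albumin.

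**Figure D2:**
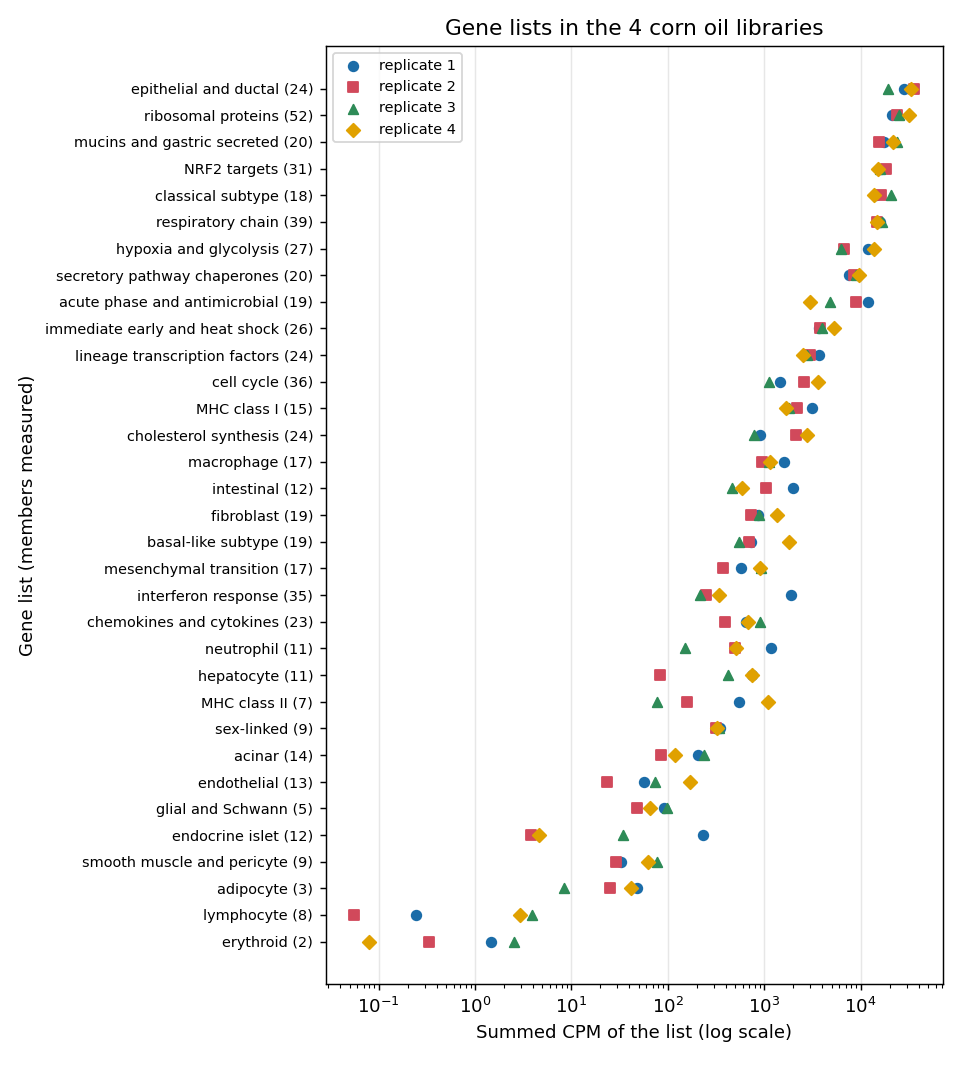
Summed CPM on a log axis for each of the 33 lists, with a symbol for each corn oil library and the number of measured members in brackets. Epithelial, ribosomal and gastric lists lie at the top, and lymphocyte and erythroid lists at the bottom stay under 4 CPM in every library; the spread between symbols is widest for islet genes (59.7-fold) and MHC class II genes among the lists above 20 CPM on average.

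The classical program was read in all 4 libraries and differed in its make-up. Of 18 measured classical genes 17 passed the floor, and the length-scaled sum was 38848 ± 13063 (SD, n = 4), against 813.5 ± 496 for 19 basal-like genes. Tff1, Tff2 and Ctse supplied 19804, 9416 and 3784 of the classical sum. The median member stood at 308 in the classical list and 2.90 in the basal-like list. Tff1 stood at 2367.1, 8764.3, 5461.3 and 4542 CPM, with replicate 2 highest. Cathepsin E (Ctse), a gastric aspartic protease, stood at 7273, 2104.7, 5648.8 and 3103.5 CPM, with replicate 2 lowest. Claudin 18 (Cldn18), a tight junction protein of stomach epithelium, was at 3.40, 649, 1614 and 613 CPM, so that replicate 1 lacked nearly all of it while the other 3 libraries did not.

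Across all genes at the floor, 1549 (17.2%) were at least 4-fold higher in their highest than in their lowest library on the CPM + 1 scale. These are called variable. Without replicate 2 the number of variable genes was 1008, and leaving out any other library lowered it too. A range over fewer libraries cannot be wider. Among classical genes 11 of 17 were variable and among mucins and gastric secreted genes 12 of 17. Both lists hold the trefoil factors. In the epithelial and ductal list 4 of 24 were variable, close to the share over all genes. Those 4 included prominin (Prom1), a membrane protein of ductal cells, at 2408.5, 574, 75.3 and 434.5 CPM.

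The trefoil factors are small disulfide-rich peptides that protect mucosal surfaces, and their genes lie side by side on the minus strand of chromosome 17 (GRCm38), Tff3 at 31125306 to 31129646, Tff2 at 31141049 to 31144282 and Tff1 at 31161395 to 31165277. Their order of libraries differed. Tff2 stood at 1936.1, 1414.1, 4924.1 and 100.01 CPM, highest in replicate 3 and lowest in replicate 4. Tff3, the intestinal member, stood at 9.41, 392, 28.9 and 0.318 CPM, and only replicate 2 had more than 30 CPM of it. On the scale used to call variable genes, the range between libraries was 3.7-fold for Tff1, 48.8-fold for Tff2 and 298-fold for Tff3. For Tff3 this range is well below the plain ratio of its CPM values.

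Gastrokines, secreted proteins of stomach surface cells, showed another order. Gkn3 stood at 8337.2, 2007.6, 8284 and 5865.2 CPM, low in replicate 2. Gkn1 stood at 659, 612, 1210.8 and 5382.7 CPM and Gkn2, named after its values were seen, at 124, 442, 712 and 3756.6 CPM, both highest in replicate 4. Replicate 4 thus combined the highest Gkn1 and Gkn2 with the lowest Tff2. Muc6, the gland mucin of the stomach, stood at 52.9, 0.36, 245 and 188 CPM, and Muc5ac, the surface mucin, reached 48.3 CPM in replicate 3 and at most 3.46 CPM elsewhere. Muc1, a membrane mucin of most glandular epithelia, varied less, at 2906.7, 1409.4, 1829.4 and 1050.8 CPM. Among genes used as intestinal markers, Krt20 was at 1585.2, 58.5, 121.1 and 81.2 CPM and liver-intestine cadherin (Cdh17) at 72.7, 365, 9.51 and 110 CPM, while Fabp1 did not exceed 1.70 CPM.

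Basal-like genes were low but not evenly spread. Of 19 measured members 8 passed the floor, and all 8 were highest in replicate 4, where 25.2% of all genes at the floor were highest. Lamb3, a laminin chain of the basement membrane, stood at 139, 166, 69.8 and 264 CPM. Keratin 14 (Krt14) stood at 13.3, 0.0554, 2.31 and 62.6 CPM and Krt5 at 0.789, 0.0277, 0.915 and 7.96 CPM. Krt17 was not above 1.03 CPM in any library. The classical sum in replicate 4 was 13769 CPM, the lowest of the 4, and the highest, in replicate 3, was 1.52-fold above it.

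Of 24 measured lineage transcription factors 18 passed the floor and 5 were variable (27.8%, against 17.2% of all genes). Elf3, an epithelial ETS factor, stood at 1322, 851, 465 and 576 CPM, and Klf5 at 634, 553, 536 and 398 CPM. Gata6, the factor most tied to the classical state, was among the variable members at 38.7, 5.73, 117 and 35.4 CPM. In the mesenchymal list 7 of 17 passed the floor, and Vim stood at 37, 53.1, 157 and 198 CPM beside fibroblast sums of 864, 734, 877 and 1347 CPM. The part of stromal RNA in Vim was not tested.

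Genes on which the model is built, Trp53 and Slc7a11, differed little, though Trp53 at a mean of 7.30 CPM lay below the floor. Trp53 stood at 6.31, 5.65, 8.79 and 8.43 CPM and Slc7a11, the cystine importer that is floxed in these mice, at 38.4, 23.7, 39.6 and 22.2 CPM. Read counts of a gene do not separate mutant from normal alleles.

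Interferon response genes were highest in replicate 1. Type I interferon acts through a transcription factor complex that binds a short repeat in promoters, the interferon-stimulated response element. Of 35 interferon response genes 20 passed the floor. Of these, 18 were variable (90%, against 17.2% of all genes) and 19 were highest in replicate 1, where 22.5% of all genes were highest. The list summed to 1889 CPM in replicate 1 and to 248.8, 217 and 336 CPM in replicates 2 to 4. Because the floor is on the mean, a member can pass it through replicate 1 alone. The counts of variable members and of members highest in replicate 1 are therefore partly set by the floor and are a description only.

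The promoters of 3 members are shown because these genes were much higher in replicate 1 and their windows hold the letters of the response element. They are the 3 most variable members that passed the floor and whose RefSeq window (GRCm38.p6, 250 bases before to 50 after the start) holds GAAA, any 2 bases and GAAA again, on either strand. Capitals mark the matches, where overlapping matches run together and TTTC pairs are matches on the other strand. Isg15 is at chr4:156200769-156201068 on the minus strand, Ifit1 at chr19:34640639-34640938 on the plus strand and Oas1a at chr5:120907476-120907775 on the minus strand.
Isg15: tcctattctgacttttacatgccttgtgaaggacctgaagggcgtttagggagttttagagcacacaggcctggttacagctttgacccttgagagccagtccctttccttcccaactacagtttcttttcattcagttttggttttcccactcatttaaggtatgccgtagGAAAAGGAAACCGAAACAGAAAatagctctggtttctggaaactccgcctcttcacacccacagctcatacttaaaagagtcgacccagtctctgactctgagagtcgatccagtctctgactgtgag
Ifit1: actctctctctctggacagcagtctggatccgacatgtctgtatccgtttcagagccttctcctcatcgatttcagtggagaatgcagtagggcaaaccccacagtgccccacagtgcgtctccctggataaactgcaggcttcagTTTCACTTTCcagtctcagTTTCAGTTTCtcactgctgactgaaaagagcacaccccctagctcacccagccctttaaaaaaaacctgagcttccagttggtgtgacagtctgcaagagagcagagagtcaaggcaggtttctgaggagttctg
Oas1a: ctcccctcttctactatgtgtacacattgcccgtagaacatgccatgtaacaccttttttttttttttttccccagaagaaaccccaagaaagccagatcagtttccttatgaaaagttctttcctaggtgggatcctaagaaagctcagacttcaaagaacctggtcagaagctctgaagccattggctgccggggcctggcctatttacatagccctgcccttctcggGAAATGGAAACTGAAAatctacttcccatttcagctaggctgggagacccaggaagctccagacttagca
This pattern of 10 letters was found in 13 of the 24 interferon list genes that have a window (54.2%) and in 3.99% of all 27025 genes with one. The list holds genes known to answer interferon, so its higher share says nothing about these libraries. Rtp4 and Irf7, more variable than Isg15, had no window holding the pattern. A match is a run of letters in a window and not a measured binding site.

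Isg15, a ubiquitin-like protein attached to viral and host proteins, stood at 122, 0.692, 1.59 and 1.07 CPM. Ifit1, which binds viral RNA, stood at 67.6, 0.332, 0 and 2.94 CPM, and Oas1a, an enzyme that senses double-stranded RNA, at 65.1, 2.60, 0.0398 and 12 CPM. Each of the 3 was highest in replicate 1, with Oas1a in replicate 4 the nearest other value. Rtp4, a chaperone of receptors that interferon induces, was the most variable member at 205, 0.0277, 0 and 0.835 CPM, and Irf7, the amplifying transcription factor of the response, stood at 205, 19.1, 0.915 and 3.26 CPM. The single member highest elsewhere was Oasl1, at 73.6, 116, 32 and 128 CPM.

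**Figure D3:**
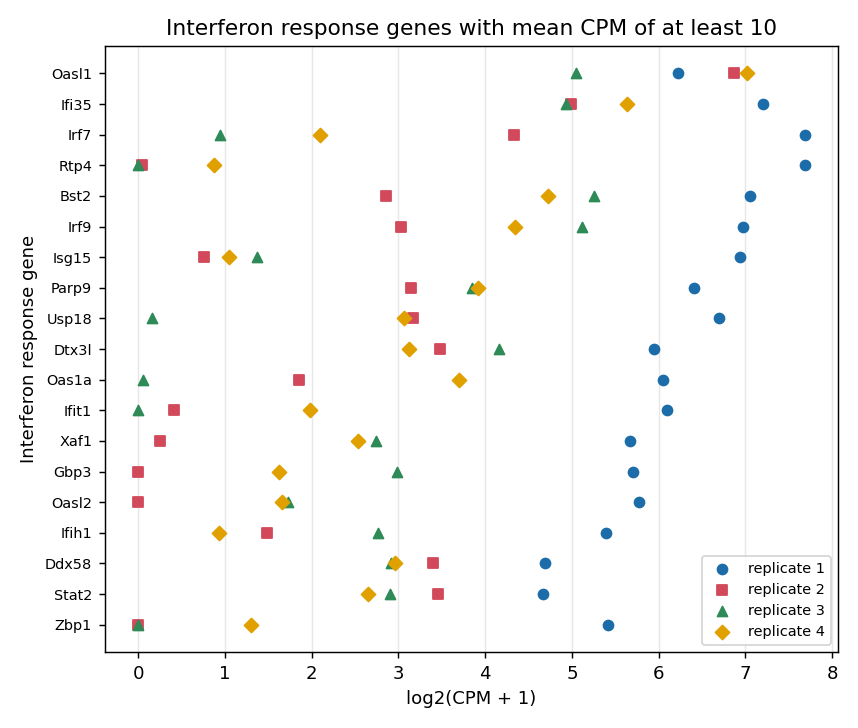
log2(CPM + 1) of 19 of the 20 interferon response genes with a mean of at least 10 CPM, 1 symbol per corn oil library. Replicate 1 lies to the right of the other 3 libraries for 18 genes, and Oasl1 at the top is the exception.

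Antigen presentation followed in part. MHC class I genes summed to 3104.4, 2170.2, 1820.8 and 1663.6 CPM, and 8 of 11 at the floor were highest in replicate 1, against 22.5% of all genes. Psmb8, an immunoproteasome subunit, stood at 109, 10.05, 16.8 and 10.03 CPM. The other 3 were highest in replicate 2, among them the heavy chain genes H2-K1 and H2-D1. H2-K1 stood at 339, 349, 154 and 289 CPM and H2-D1 at 376, 461, 191 and 118 CPM. MHC class II was highest in replicate 4 instead, for all 5 members at the floor, against 25.2% of all genes. Its invariant chain Cd74 stood at 297, 90.1, 37.1 and 503 CPM and H2-Ab1 at 123, 28.7, 14.4 and 281 CPM, a list sum of 77.6 to 1086 CPM beside the 1.7-fold range of the macrophage list. Which cells carried these transcripts was not tested.

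Acute phase and antimicrobial proteins differed widely between libraries. Of 15 members at the floor 13 were variable (86.7%, against 17.2% of all genes). Lipocalin 2 (Lcn2), an iron-scavenging defence protein, was the most variable gene of all at 2898.7, 26.02, 498 and 3.34 CPM. Dmbt1, a mucosal scavenger receptor, stood at 4743.3, 582, 685 and 77.3 CPM and Wfdc2, a small secreted protease inhibitor-like protein, at 1913.8, 7356.4, 2267.5 and 1860.1 CPM. Il33, an alarmin held in nuclei, was highest in replicate 4, at 128, 1.38, 41.1 and 362 CPM. The list as a whole summed to 12025, 8866, 4828 and 3016 CPM. Neutrophil genes summed to 1182, 493, 150 and 511 CPM, but lactoferrin (Ltf), also a mucosal secretion, supplied most of it at 1098.7, 290.2, 125 and 474 CPM. The neutrophil calprotectin chains S100a8 and S100a9 were at most 67.1 and 65.5 CPM, both in replicate 2.

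Proteases of the Mcpt family, known from mast cells and basophils, were the 3 of 12 measured genes of a mast cell and basophil list that passed the floor. This list was added after the values were seen. Mcpt8 stood at 82.1, 11, 45.8 and 1178.4 CPM, Mcpt2 at 265, 22.7, 419 and 523 CPM and Mcpt1 at 105, 19.4, 121 and 509 CPM, so replicate 4 was highest and replicate 2 lowest for each. The mast cell carboxypeptidase Cpa3 reached at most 2.98 CPM, the receptor Kit 3.30 CPM and the IgE receptor subunits Fcer1a and Ms4a2 0.304 and 1.64 CPM. The mast cell tryptase Tpsab1 reached 20.6 CPM in replicate 3, with no read in replicates 1 and 2 and 0.637 CPM in replicate 4. The Mcpt genes are related genes on chromosome 14, so reads may have been divided among them. Dclk1, a kinase used as a tuft cell marker, stood at 159, 0.858, 117 and 4.93 CPM, low in replicates 2 and 4. Of 8 measured tuft cell genes 3 passed the floor, and the others were Avil, an actin-binding protein, at 56.7, 19.9, 36.7 and 227 CPM and Ptgs1, a prostaglandin synthase, at 91.9, 67.7, 135 and 57.7 CPM. These 3 did not share an order of libraries, and the tuft cell genes Trpm5 and Pou2f3 did not exceed 1.35 and 0.728 CPM.

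Proliferation genes set replicates 2 and 4 apart from 1 and 3. The 36 cell cycle genes summed to 1458.8, 2585.1, 1111.4 and 3618.7 CPM. Of 33 at the floor 23 were highest in replicate 4, against 25.2% of all genes. In replicate 3, 25 were lowest, against 23.6% of all genes. Cdk1, the kinase that drives mitosis, stood at 48.1, 177, 17.2 and 164 CPM and Ube2c, a ubiquitin-conjugating enzyme of mitotic exit, at 59.1, 143, 30.2 and 236 CPM, while the replication clamp Pcna held between 80.1 and 111 CPM. Cholesterol synthesis showed the same order of libraries, with sums of 895, 2118, 777 and 2789.5 CPM. Of the 23 members at the floor 15 were highest in replicate 4 and 8 in replicate 2, where 24.4% of all genes were highest. Sqle, an early oxygen-dependent enzyme of the pathway, stood at 36.6, 135, 20.5 and 239.8 CPM. With 4 libraries no relation between the lists can be tested.

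Hypoxia and glycolysis genes were highest in replicates 4 and 1. They summed to 11844, 6713, 6258.6 and 13637 CPM, and 19 of 26 were highest in replicate 4, against 25.2% of all genes. Gapdh stood at 2319.7, 1557.1, 1238.7 and 2681.3 CPM, while Car9, a hypoxia-induced carbonic anhydrase, was highest in replicate 1 at 368, 40.4, 111 and 76.4 CPM. NRF2 targets summed to 16133, 18278, 16015 and 15030 CPM, a range of 1.2-fold, and ferritin chains Ftl1 and Fth1 supplied most of it. Single members varied more, with 8 of 29 at the floor variable (27.6%, against 17.2% of all genes).

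Housekeeping lists held few variable genes. None of 51 ribosomal protein genes at the floor and 1 of 39 respiratory chain genes were variable, against 17.2% of all genes. The share depended on level, at 19.5% for genes of 10 to 100 CPM and 9.51% for genes of 100 to 1000 CPM. It was 11.4% for genes of at least 1000 CPM. The respiratory chain summed to 15711, 14758, 16778 and 14936 CPM. Ribosomal proteins summed to 21198, 23832, 25061 and 31899 CPM, and 36 of 51 were highest in replicate 4, against 25.2% of all genes. The 5 steadiest genes above 100 CPM were the proteasome subunits Psma1 and Psma7, the mitochondrial ribosomal protein Mrpl30, the copper chaperone Atox1 and spectrin Sptbn1. Psma1 stood at 324, 334, 345 and 343 CPM.

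Replicate 1 was nearer to each other library than those were to one another. Pearson's r of log2(CPM + 1) across the 9000 genes, which are not independent replicates, ran from 0.801 to 0.822 in the 3 pairs with replicate 1 and from 0.778 to 0.789 in the 3 pairs without it. Between 399 genes (4.43%, replicates 1 and 3) and 680 genes (7.56%, replicates 2 and 3) were at least 4-fold apart in a pair. Spread depended on level. The median SD of log2(CPM + 1) was 0.54 for genes of 10 to 100 CPM and 0.40 for genes of 100 to 1000 CPM. For the 79 genes of at least 1000 CPM it was 0.50. The edgeR common biological coefficient of variation was 0.523.

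The 24 most variable genes had an SD of log2(CPM + 1) of 2.89 to 4.20. After Lcn2 came Ly6k, a surface protein of the Ly6 family, at 0.546, 0.498, 514 and 1.15 CPM, and Xist, the RNA that coats the inactive X chromosome, at 143, 0.083, 0.0398 and 83.8 CPM. The Y-linked genes Ddx3y, Uty and Eif2s3y showed the opposite pattern, with Eif2s3y at 0.121, 82.7, 42 and 0.278 CPM. Replicates 1 and 4 thus read as female and 2 and 3 as male. Some genes were high in a single library: Cym, the milk-clotting stomach protease, stood at 1.82, 0.332, 130 and 0.0398 CPM and the chemokine Cxcl12 at 0, 0.111, 65.4 and 0 CPM. Other genes were low in some libraries and high in the rest. Upk1b, a uroplakin of bladder surface, stood at 0.243, 95.2, 99.4 and 3.58 CPM, and Wls, the carrier of secreted Wnt proteins, at 261, 2.55, 212 and 30.1 CPM. Nrn1, Crp, Sult1a1 and Dclk1 were high in replicates 1 and 3 and low in 2 and 4. Crp, the acute phase C-reactive protein, stood at 22.6, 0.138, 53.7 and 0.0796 CPM.

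**Figure D4:**
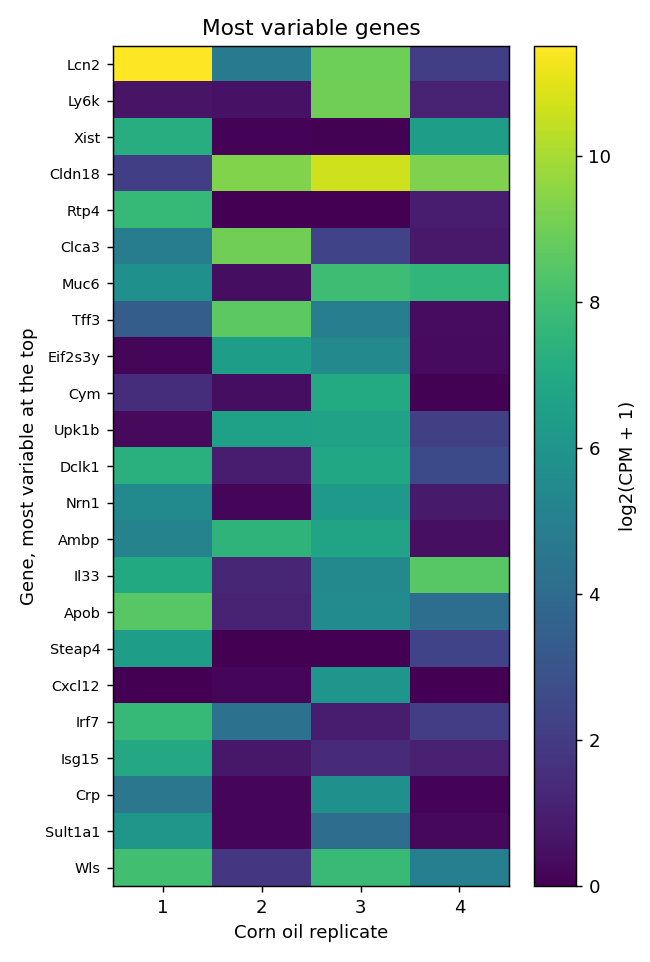
log2(CPM + 1) of 23 of the 24 most variable genes (rows) in the 4 corn oil libraries (columns), with brighter colours for higher levels. Lcn2 is brightest in replicate 1, Ly6k in replicate 3 alone, and Xist is bright in replicates 1 and 4 where Eif2s3y is dark.

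Variable genes were most often low in replicate 2. With the libraries of each gene split at the middle of its log2 range, 262 of 1549 variable genes (16.9%) were high in replicates 1, 3 and 4 and low in 2, and 183 were high in 1 and 3 only. Replicate 2 was at least 4-fold below each other library for 127 genes (1.41%), against 74 (0.822%) for replicate 4, 61 (0.678%) for replicate 3 and 18 (0.2%) for replicate 1. Genes at least 4-fold above each other library numbered 45 (0.5%) in replicate 1, 40 (0.444%) in replicate 4, 29 (0.322%) in replicate 3 and 11 (0.122%) in replicate 2. Replicate 1 thus had the most lone high genes and replicate 2 the most lone low genes. Among the low genes of replicate 2 were Muc6, the membrane protein Tmtc4 (35, 0.083, 29.5 and 74.5 CPM), the neighbouring Ggact (46.9, 0.194, 54.2 and 26.8 CPM) and Pof1b. In replicate 4, the morphogen sonic hedgehog (Shh) stood at 22.8, 33.2, 25.3 and 0.159 CPM, and Uhrf1, a reader of hemimethylated DNA, at 6.62, 5.54, 5.21 and 67.4 CPM.

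The low genes of replicate 2 were not spread evenly over the genome. On chromosomes 3, 14, 18 and 19 the median gene of replicate 2 differed by -0.57, -0.58, -0.51 and -0.64 from the mean of the other 3 libraries on the log2 scale, while on the other 15 autosomes its medians ran from -0.23 to 0.32. Replicate 2 was lowest for 259 of 425 genes on chromosome 3, 166 of 286 on chromosome 14, 117 of 201 on chromosome 18 and 198 of 326 on chromosome 19, against 29.9% of all genes at the floor. Clu, on chromosome 14, was nevertheless highest in replicate 2. Replicate 3 was higher on chromosomes 3, 13, 16, 18 and 19, with medians of 0.46, 0.45, 0.45, 0.41 and 0.46. On chromosome 16 it was highest for 55.3% of 275 genes and on chromosome 13 for 49.3% of 278, against 27.8% of all genes. With replicate 2 left out of the reference, the medians of replicate 3 were 0.27, 0.54, 0.43, 0.23 and 0.29 on these chromosomes. In replicates 1 and 4 no autosome reached 0.4 in either direction. Copy number was not measured, and its part in these shifts was not tested.

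**Figure D5:**
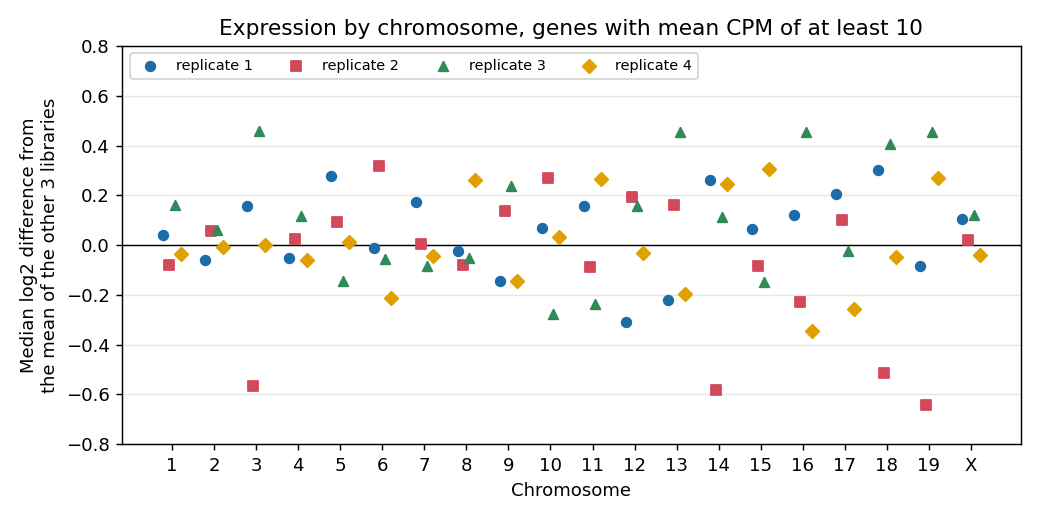
Median log2 difference of each corn oil library from the mean of the other 3, by chromosome, over genes with a mean of at least 10 CPM. Replicate 2 lies between -0.64 and -0.51 on chromosomes 3, 14, 18 and 19, and replicate 3 lies above 0.4 on chromosomes 3, 13, 16, 18 and 19.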

How the data were processed

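RNA was extracted with the RNeasy micro kit and made into libraries with SMART-seq v4 and Nextera XT, per the labels' protocols; this chemistry does not mark strand. bcl2fastq 2.17, STAR 2.5.2b, featureCounts 1.5.0-p3 and the mm10 build are named per the submitters' processing notes. For the annotation and multi-mapping reads, the rule is not given in the sources used here. Related copies (insulin, Mcpt, Ly6, ferritin and MHC genes) and genes that share exons with another gene (such as Tff1, Krt8, Spp1, Irf7, Rtp4, Dclk1, Ggact, Tmtc4, Ly6k, Nrn1, Prom1, Gata6 and Xist) are therefore uncertain. The authors deposited whole-number read counts per gene. Mitochondrially encoded genes were not analysed here.

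Counts of the 4 corn oil libraries were divided by the library total (CPM), and for levels between genes also by GENCODE M21 exon length, matched for 14649 genes (93.8%). edgeR 4.0.16 gave TMM and RLE factors and dispersions only. With 1 group, no test was made. Scripts were tested on simulated data. Alternatives covered scaling, pseudocount, floor, fold, spread measure and leaving out each library.

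Named genes are the 20 of highest CPM, the 10 highest per length, the 24 most variable, the 5 steadiest, lone-library genes, the leading and most variable members of each list, defining markers, Slc7a11 and Trp53. Ifit1 and Oas1a were named for their promoters. Car9, Cd3g, Cd8a, Cpa3, Dpt, Fabp1, Fcer1a, Gkn2, Kit, Ms4a1, Ms4a2, Muc1, Pcna, Pou2f3, Trpm5 and Uty were named after their values were seen. The members and lists were chosen with earlier results of these data known; the mast cell, tuft cell and tumour gene lists and the chromosome medians were added after the values were seen. Some genes of the lists are counted in their list but not reported here by name or in the plots. In the lists 6 genes were matched by older symbols. Replicate numbers follow accession order.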

Additional observations from a re-analysis of the deposited data

Results flagged for a closer look

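In 33 of 135 genes and 5 of 36 lists, 1 library lay apart from the other 3 by more than Dixon's 95% criterion for groups of 4. For values that follow a normal curve, chance gives this for about 1 in 20 groups, and that rate was not checked for CPM values. Many of these genes were named because they differ between libraries, so the number is not a measure of anything else.

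Replicate 1 was the highest in 19 of these 38 genes and lists. Among interferon and antigen presentation genes, it held 204.9 CPM of Rtp4, 204.6 of Irf7, 121.7 of Isg15, 67.62 of Ifit1 and 109 of Psmb8, and 1889 CPM of the interferon list. Among secreted and epithelial genes it held 2899 CPM of Lcn2, 4743 of Dmbt1, 366.5 of Apob and 1585 of Krt20. Its islet genes stood at 136.9 CPM for Ins2, 38.79 for Ins1, 0.7284 for Gcg and 2.064 for Chga, with 229.8 CPM for the islet list. Genes with a few reads in this library and none in the others were Krt17 (1.032 CPM), Ms4a2 (1.639 CPM), Fcer1a (0.3035 CPM) and Cela2a (0.1821 CPM).

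Replicate 2 was highest for Tff3 (391.9 CPM) and Wfdc2 (7356 CPM), and lowest for Pof1b (0.1107 CPM) and the tuft cell list (101.7 CPM). Replicate 3 was highest for Ly6k (514 CPM), Cym (129.6 CPM), Cxcl12 (65.42 CPM), Muc5ac (48.31 CPM) and Tpsab1 (20.57 CPM), and alone had reads of Alb (0.3581 CPM) and Cd79a (0.3183 CPM). Replicate 4 was highest for Gkn1 (5383 CPM), Gkn2 (3757 CPM), Mcpt8 (1178 CPM), Flt1 (82.43 CPM), Uhrf1 (67.39 CPM) and Krt5 (7.956 CPM). Its basal-like list stood at 1806 CPM and its immediate early and heat shock list at 5346 CPM.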

How the results depend on the processing

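The number of variable genes, 1549, followed the thresholds: it was 3395 with a floor of 1 CPM, 938 with a floor of 20 CPM and 587 at 8-fold. Leaving out each library gave 1008 (without replicate 2) to 1201 (without replicate 1), from fewer libraries. With TMM and RLE scaling it was 1533 and 1529. Of the 24 most variable genes, 9 were shared with the 24 of highest edgeR tagwise dispersion. Members at the floor changed by more than 1.5-fold in some lists. At 20 CPM, 1 smooth muscle, 1 endothelial, 1 islet, 1 glial, 5 chemokine and 11 interferon genes remained above it. At 5 CPM, 6 endothelial, 2 adipocyte and 14 chemokine genes passed. No paired analysis was possible because the libraries form 1 group, no test was made and replicate numbers are names only. Library depth limits genes below about 10 CPM, where a count of 0 allows 0.083 to 0.182 CPM.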

Other observations

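Of 23 chemokine and cytokine genes 8 passed the floor and 6 were variable (75%, against 17.2% of all genes), and the genes named had different orders of libraries. Cxcl17, a mucosal chemokine, stood at 38.1, 160, 496 and 229 CPM and was highest in replicate 3. Cxcl5, a neutrophil attractant, stood at 204, 99.8, 19.3 and 61.2 CPM and was highest in replicate 1. Pigr, the receptor that carries antibodies across epithelium, stood at 188, 75.8, 0.875 and 27.9 CPM, so replicate 3 had almost none. The chloride channel Cftr of ductal cells stood at 119, 8.41, 103 and 165 CPM, with replicate 2 apart from the rest.

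Secretory pathway chaperones summed to 7668.6 to 9580.4 CPM. Of these 20 genes 1 was variable (5%), against 17.2% of all genes and 9.51% of genes of 100 to 1000 CPM. Hspa5, the main chaperone of the endoplasmic reticulum, stood at 873.5, 1071.7, 1330.1 and 1386.1 CPM. Immediate early and heat shock genes summed to 3745.7, 3790.6, 3955 and 5346.2 CPM, and 14 of 22 at the floor were highest in replicate 4, against 25.2% of all genes. Junb, a subunit of the AP-1 factor, stood at 654, 529, 613 and 974 CPM.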
